A study of Arabidopsis thaliana with 24 samples.

Results

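Described here are 7 Arabidopsis thaliana genes for transporters that move metals out of the cytosol: MTP1 (AT2G46800), MTP3 (AT3G58810), MTP8 (AT3G58060), HMA3 (AT4G30120), IREG1 (AT2G38460), IREG2 (AT5G03570) and IREG3 (AT5G26820). They were chosen by gene identifier from 33602 genes in a table of root expression, and all 7 reached 1 RPKM (reads per kilobase of gene, scaled to the size of the library) in at least 1 group, as 19767 genes did. When iron was withheld from wild-type roots, MTP3, MTP8, HMA3, IREG2 and IREG3 rose and IREG1 fell in the authors' deposited table. The 6 that moved were all lower in the pye-1 mutant than in iron-deficient wild type in that set of tables. MTP1 was listed in no comparison.

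Iron-starved roots make more of the importer IRT1, which also lets in zinc, manganese, cobalt, nickel and cadmium, and surplus metal is known to be locked away in the vacuole. MTP proteins exchange metal ions for protons across membranes, HMA3 is a metal-pumping ATPase of the vacuolar membrane, and the IREG proteins (also called ferroportins) are exporters that act at different membranes. POPEYE (PYE), the gene mutated in pye-1, makes a transcription factor of the basic helix-loop-helix class that acts in the iron deficiency response of roots.

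The study sequenced RNA from roots of 7 day old seedlings, cut from the shoot with a razor, in 24 samples that form 8 groups of 3. All seedlings grew for 4 days on medium with 0.1 mM FeEDTA and were moved for the last 3 days. Wild type was moved to the same medium (iron-sufficient wild type) or to medium without FeEDTA that held 300 µM ferrozine, an iron chelator (iron-deficient wild type). The other 6 groups were all moved to the iron-deficient medium: pye-1, written PYE in the sample records, and 5 lines. The labels give each line a code for where GFP was seen: V-EN-C-EP for PPL, V-EN for SHR23, C-EN-V for PEP45, EP-C for WER13 and EP for WER65. The labels do not spell out these codes, and they give neither the promoters, nor the accession of the wild type, nor whether the lines carry the pye-1 allele. Levels are the authors' means, 1 per group. A spread between replicates is given for IREG1 alone, the only member whose reads per library were worked out. Rises and falls are stated where the authors' deposited table for a comparison lists the gene, each at a q-value (p-value adjusted for multiple tests) under 0.05. The labels do not say whether the samples of a group came from separate cultures.

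The recovered libraries held between 14834475 and 24011366 effective reads. The PYE transcript itself stood at 11.0 RPKM in iron-sufficient wild type, 45.1 in iron-deficient wild type, 20.6 in pye-1, 25.3 in PPL, 45.8 in SHR23, 28.9 in PEP45, 30.3 in WER13 and 27.5 in WER65. The authors' deposited tables list it as lower than iron-deficient wild type in pye-1, PPL, PEP45 and WER65, and not in SHR23 or WER13. Being listed as lower thus does not set the mutant apart from PPL, PEP45 and WER65. Among the groups without iron, its level was lowest in pye-1. These are whole roots, in which fewer cells of a type and less RNA per cell cannot be told apart.

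Stretches upstream of 3 of the genes that responded to iron are shown because basic helix-loop-helix factors as a class bind the 6-base word CANNTG. Each is the 250 bases before the annotated gene start in the RefSeq annotation of TAIR10.1, read 5′ to 3′ on the strand of the gene, and capitals mark every CANNTG. The MTP8 window is chr3:21499944-21500193 on the minus strand, the HMA3 window chr4:14733629-14733878 on the minus strand, and the IREG2 window chr5:903220-903469 on the plus strand. None of the 3 windows overlaps another annotated gene.
MTP8: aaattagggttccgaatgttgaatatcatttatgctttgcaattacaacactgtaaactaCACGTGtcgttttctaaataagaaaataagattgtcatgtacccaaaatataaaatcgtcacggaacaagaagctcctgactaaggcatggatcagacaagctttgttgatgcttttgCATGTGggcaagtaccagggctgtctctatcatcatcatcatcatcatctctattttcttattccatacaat
HMA3: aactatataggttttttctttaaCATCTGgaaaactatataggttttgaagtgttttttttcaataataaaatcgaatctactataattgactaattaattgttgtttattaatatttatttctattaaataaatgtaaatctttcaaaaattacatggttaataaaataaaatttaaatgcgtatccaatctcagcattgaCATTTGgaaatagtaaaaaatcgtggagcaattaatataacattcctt
IREG2: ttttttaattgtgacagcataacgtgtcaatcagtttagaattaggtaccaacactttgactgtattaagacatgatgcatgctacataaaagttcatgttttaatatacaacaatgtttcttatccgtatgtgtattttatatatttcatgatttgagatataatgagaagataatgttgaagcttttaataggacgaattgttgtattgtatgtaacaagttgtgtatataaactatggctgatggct

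The MTP8 window holds 2 matches, 1 of them CACGTG, a form of CANNTG, whose first base is at -190 from the gene start; the other, CATGTG, begins at -72. The HMA3 window holds CATCTG and CATTTG, beginning at -227 and -48. The IREG2 window holds no CANNTG. Of the windows not shown, that of MTP3 holds 2 matches (CAGCTG and CATTTG), that of IREG3 holds 1 (CAGGTG), and those of MTP1 and IREG1 hold none; the windows of MTP3, MTP1 and IREG1 overlap a neighbouring gene. Of 27443 windows of 250 bases before protein-coding genes, 55.3% hold CANNTG and 6.49% hold CACGTG. Both words read the same on either strand. A match is only letters in a window, and no binding was measured.

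The largest responses to iron came from the vacuolar transporters of the MTP and HMA families. MTP8, which loads manganese and iron into the vacuole, stood at 1.82 RPKM in iron-sufficient wild type, 36.0 in iron-deficient wild type, 9.30 in pye-1, 32.8 in PPL, 24.1 in SHR23, 14.2 in PEP45, 22.9 in WER13 and 19.4 in WER65. Iron-sufficient wild type was lowest and iron-deficient wild type highest, with pye-1 the lowest of the 7 groups without iron. The rise of MTP8 in wild type was 19.8-fold (q = 0.000194 in the authors' deposited table), and in pye-1 it fell 3.87-fold below iron-deficient wild type (q = 1.99e-05 in the authors' deposited table). The gene lies on chromosome 3, 21497633 to 21499943, minus strand, and its longest coding transcript has 8 exons.

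MTP3, a vacuolar zinc and cobalt transporter known to be induced by iron deficiency, stood at 29.7, 279, 91.8, 271, 172, 154, 188 and 147 RPKM in the same order of groups. Its order at the ends was that of MTP8, with PPL just under iron-deficient wild type and pye-1 above only iron-sufficient wild type. The rise in wild type was 9.41-fold (q = 5.15e-05 in the authors' deposited table) and the fall in pye-1 3.04-fold (q = 1.41e-05, authors' deposited table). MTP3 lies on chromosome 3, 21749966 to 21752141, plus strand, and its longest coding transcript is a single exon of the annotation.

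MTP1, the close relative of MTP3 that carries zinc into the vacuole, stood at 94.3, 85.9, 77.7, 79.3, 103, 83.1, 87.6 and 84.6 RPKM. Its highest group, SHR23, was 1.33-fold above its lowest, pye-1, and none of the 7 tables lists it. MTP1 was therefore the more abundant of the pair on iron, where the MTP3 level was 0.315 of the MTP1 level, and MTP3 the more abundant without iron, at 3.25 times MTP1. In pye-1 the ratio was 1.18, in PPL 3.42, and in the other 4 lines between 1.66 and 2.15. The coding sequences of the 2 genes are identical at 71.5% of aligned bases, with no identical run longer than 26 bases; how reads matching both were counted is not given in the sources used here. MTP1 lies on chromosome 2, 19235374 to 19239577, plus strand.

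HMA3, whose vacuolar ATPase sequesters cadmium, zinc and cobalt, stood at 4.97 RPKM in iron-sufficient wild type, 36.0 in iron-deficient wild type, 11.6 in pye-1, 30.8 in PPL, 18.0 in SHR23, 12.8 in PEP45, 20.5 in WER13 and 19.6 in WER65. Its PEP45 value lay close to pye-1, and its PPL value close to wild type. The rise in wild type was 7.25-fold (q = 0.000466 in the authors' deposited table) and the fall in pye-1 3.12-fold (q = 2.55e-05, authors' deposited table). HMA3 lies on chromosome 4, 14730215 to 14733628, minus strand. Its annotated coding sequence has 1629 bases against 2856 in its neighbour HMA2; the reference accession Columbia is known to carry an HMA3 with an early stop. HMA2, a plasma membrane zinc exporter of the same family, stood at 3.08 RPKM with iron and 6.26 without (q = 0.0216 in the authors' deposited table, higher). In the other 6 groups HMA2 ranged from 5.05 to 8.68, and no table lists it against iron-deficient wild type. The HMA3 and HMA2 coding sequences are identical at 74.5% of aligned bases, with a longest identical run of 23.

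**Figure D1:**
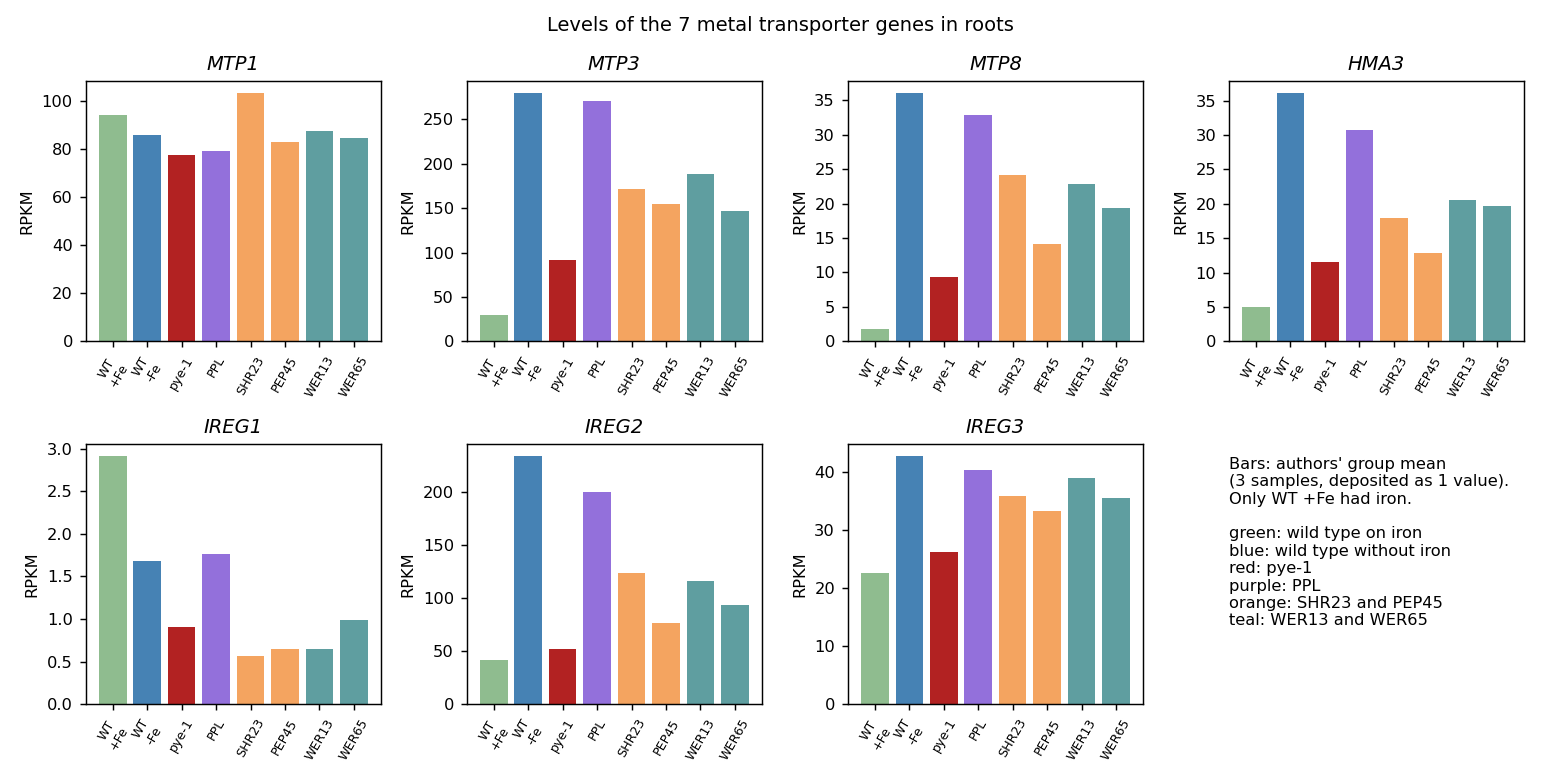
Authors' mean RPKM of the 7 genes in each of the 8 groups, 1 panel per gene with its own vertical axis from 0. MTP3, MTP8, HMA3 and IREG2 share the pattern of low bars with iron, high bars in iron-deficient wild type and PPL, and bars in between in the other lines, whereas MTP1 stays between 77.7 and 103 and IREG1 is highest with iron, at 2.91.

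Of the 3 IREG genes, IREG2 and IREG3 had the directions of MTP3, MTP8 and HMA3 in the comparison of iron and in pye-1, and IREG1 fell in both. IREG2, a vacuolar transporter of nickel and cobalt that is known to be induced in iron-deficient roots, stood at 41.4 RPKM in iron-sufficient wild type, 233 in iron-deficient wild type, 52.0 in pye-1, 199.7 in PPL, 124 in SHR23, 76.2 in PEP45, 116 in WER13 and 93.3 in WER65. In pye-1 it was near the level of roots kept on iron. It rose 5.64-fold in wild type (q = 1.64e-05 in the authors' deposited table) and fell 4.49-fold in pye-1 (q = 8.33e-07, authors' deposited table), a difference of -2.16 on the log2(RPKM + 0.5) scale, where MTP8 had -1.90, MTP3 and HMA3 -1.60, IREG3 -0.69 and IREG1 -0.63. That scale gives smaller values for genes at low levels, and as plain ratios IREG1 fell 1.85-fold and IREG3 1.63-fold in pye-1. IREG2 lies on chromosome 5, 903470 to 906833, plus strand, and overlaps the end of AT5G03580 on the opposite strand. AT5G03580 stood between 0 and 0.464 RPKM in the 8 groups.

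IREG3, also known as MAR1, which acts at the plastid envelope and not at the vacuole, stood at 22.7, 42.8, 26.3, 40.5, 35.9, 33.3, 39.0 and 35.7 RPKM in the order of groups used above. It had the shape of the vacuolar genes in a smaller range, 1.89-fold from its lowest to its highest group. It rose 1.89-fold in wild type (q = 7.07e-05 in the authors' deposited table) and fell 1.63-fold in pye-1 (q = 0.000279, authors' deposited table), and in no line was it listed. It lies on chromosome 5, 9433569 to 9437158, plus strand.

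IREG1, an exporter at the plasma membrane of vascular cells that loads iron and cobalt toward the shoot, was the rarest member and the only one that fell when iron was withheld. On the basis of single-read steps in the deposited means, its reads in the 3 libraries of each group, ordered by library size, were 82, 97 and 75 in iron-sufficient wild type, and 60, 47 and 68 in iron-deficient wild type. They were 34, 34 and 46 in pye-1, and 47, 55 and 67 in PPL. SHR23 had 23, 9 and 23, PEP45 6, 33 and 36, WER13 20, 14 and 22, and WER65 29, 41 and 19. PEP45 and SHR23 thus each hold 1 library with fewer than 10 reads of the gene.

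In RPKM the IREG1 means were 2.91 ± 0.376 (SD, n = 3) in iron-sufficient wild type, 1.68 ± 0.276 (SD, n = 3) in iron-deficient wild type and 0.910 ± 0.107 (SD, n = 3) in pye-1. PPL had 1.76 ± 0.157 (SD, n = 3), SHR23 0.569 ± 0.251 (SD, n = 3), PEP45 0.651 ± 0.389 (SD, n = 3), WER13 0.647 ± 0.129 (SD, n = 3) and WER65 0.994 ± 0.389 (SD, n = 3). From high to low the order was iron-sufficient wild type, PPL, iron-deficient wild type, WER65, pye-1, PEP45, WER13 and SHR23. The libraries of iron-sufficient wild type, the lowest at 2.55, lay above every other library, the next highest being a PPL library at 1.92, and each later pair of neighbours in the order overlapped.

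Against iron-deficient wild type, the IREG1 libraries of iron-sufficient wild type, pye-1, SHR23, PEP45 and WER13 did not overlap, each at p = 0.1 in a two-sided exact permutation test, which is the smallest p that 3 against 3 allows (0.14 after Benjamini-Hochberg adjustment over the 7 comparisons). PPL (exact permutation p = 0.7, adjusted 0.7) and WER65 (exact permutation p = 0.2, adjusted 0.233) overlapped with it. The authors' deposited tables list the same 5: IREG1 fell 1.73-fold without iron (q = 0.0184), and against iron-deficient wild type it fell 1.85-fold in pye-1 (q = 0.0164), 2.95-fold in SHR23 (q = 0.00418), 2.58-fold in PEP45 (q = 0.0281) and 2.60-fold in WER13 (q = 0.00157). IREG1 and IREG2 coding sequences are identical at 80.3% of aligned bases, with a longest identical run of 32, and IREG2 was between 14.2 and 217 times as abundant per length. Whether reads of IREG2 were counted for IREG1 was not tested. IREG1 lies on chromosome 2, 16103164 to 16106208, plus strand.

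**Figure D2:**
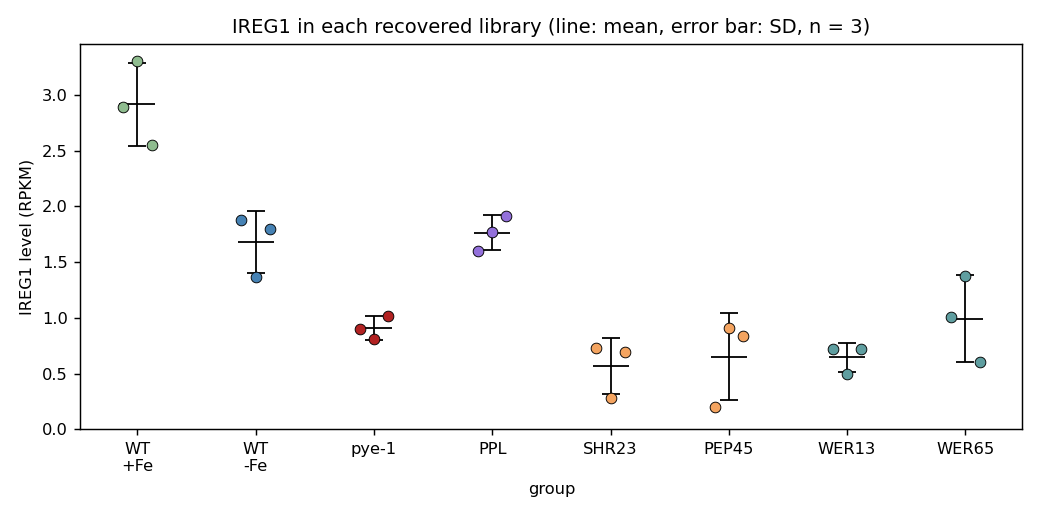
IREG1 level (vertical axis, RPKM) in each recovered library (points), with the mean and SD of 3 libraries per group. All 3 libraries of iron-sufficient wild type lie at or above 2.55, the iron-deficient wild type and PPL between 1.37 and 1.92, and pye-1, SHR23, PEP45 and WER13 at or below 1.02.

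Most members were listed when iron was withheld from wild type. In wild type without against with iron, the authors' deposited table lists 5 of the 7 as higher and 1 as lower, where it lists 22.0% of the 19767 kept genes in either direction, 10.3% as higher and 11.7% as lower. The median difference of the 7 was 2.48 on the log2(RPKM + 0.5) scale, against -0.01 over all kept genes, where rises and falls cancel. The 5th and 95th percentiles of all kept genes were -1.08 and 1.30. MTP3, MTP8, HMA3 and IREG2 lay above that range, and MTP1 (-0.13), IREG1 (-0.65) and IREG3 (0.90) inside it. The transporters named for vacuolar loading thus rose except for MTP1, which stood at 85.9 RPKM against 94.3. MTP8 rose from a level that 13.1% of kept genes lay below to one that 79.2% lay below, and MTP3 from 75.1% to 98.4%.

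In pye-1 against iron-deficient wild type, the authors' deposited table lists 6 of the 7 as lower and none as higher, where it lists 10.2% of kept genes as lower and 19.1% in either direction. The median of the 7 was -1.60, against 0.00 over all kept genes. For MTP3, MTP8, HMA3, IREG2 and IREG3 the pye-1 mean still lay above iron-sufficient wild type, by ratios that were smallest for IREG3 (26.3 against 22.7 RPKM) and largest for MTP8 (9.30 against 1.82); those 2 groups differ in both iron and genotype, and no table compares them. IREG1 was lower in pye-1 than in either wild-type group. The comparisons with pye-1 and with iron share the iron-deficient wild type samples.

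PPL, the line with the widest code, held all 7 members near wild type. The authors' deposited table for the line lists none of them, and 3 of all kept genes (0.0152%). The members differed from iron-deficient wild type by between -0.22 (HMA3, 30.8 RPKM against 36.0, and IREG2, 199.7 against 233) and 0.05 (IREG1, 1.76 against 1.68) on the log2(RPKM + 0.5) scale, and their median was -0.12, against -0.01 over all kept genes. Against pye-1, where no table exists and no test was made, MTP3 (2.95-fold), MTP8 (3.53-fold), HMA3 (2.66-fold) and IREG2 (3.84-fold) were past 2-fold higher, as were 3.72% of kept genes.

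In SHR23, with the code V-EN, the authors' deposited table lists 4 members as lower than iron-deficient wild type, where 10.6% of kept genes were listed as lower and 18.1% in either direction. HMA3 fell 2.003-fold (q = 1.67e-05), IREG2 1.89-fold (q = 6.58e-06), MTP3 1.63-fold (q = 0.000294) and IREG1 2.95-fold in the authors' deposited table. MTP8 was 1.494-fold lower (24.1 RPKM against 36.0) and is not listed; the smallest difference in that table is 1.498-fold. MTP1 was at its highest here, 103 RPKM against 85.9, not listed. The median of the 7 was -0.70. Against pye-1, with no test, MTP8 (2.59-fold) and IREG2 (2.38-fold) were past 2-fold higher, as were 2.26% of kept genes.

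PEP45, with the code C-EN-V, had the lowest level of MTP8, HMA3 and IREG2 of the 5 lines. The authors' deposited table lists 5 members as lower than iron-deficient wild type, where 9.64% of kept genes were listed as lower and 18.1% in either direction. IREG2 fell 3.06-fold (q = 1.89e-07), HMA3 2.80-fold (q = 2.41e-06), MTP8 2.54-fold (q = 8.11e-06), MTP3 1.81-fold (q = 3.24e-05) and IREG1 2.58-fold in the authors' deposited table. The median of the 7 was -0.92. Against pye-1, with no test, none was past 2-fold, as 1.02% of kept genes were; HMA3 stood at 12.8 RPKM against 11.6, and MTP3 had the largest ratio, 1.68-fold higher.

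The lines with EP in their codes gave 4 listed members each. In WER13 (EP-C), where 14.1% of kept genes were listed as lower and 23.1% in either direction, the authors' deposited table lists IREG2 (2.01-fold, q = 1.14e-05), HMA3 (1.75-fold, q = 0.000748), MTP8 (1.57-fold, q = 0.00289) and IREG1 as lower than iron-deficient wild type. MTP3 was 1.486-fold lower (188 RPKM against 279) and is not listed, the smallest listed difference being 1.496-fold. In WER65 (EP), where 11.5% of kept genes were listed as lower and 19.3% in either direction, the authors' deposited table lists IREG2 (2.50-fold, q = 6.71e-06), MTP3 (1.90-fold, q = 0.000144), MTP8 (1.85-fold, q = 0.000427) and HMA3 (1.84-fold, q = 0.00017) as lower. IREG1 was 1.69-fold lower in WER65 and is not listed. The medians of the 7 were -0.64 in WER13 and -0.86 in WER65.

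Against pye-1, with no test, MTP8 (2.46-fold), IREG2 (2.23-fold) and MTP3 (2.05-fold) were past 2-fold higher in WER13, as were 0.809% of kept genes. In WER65 MTP8 alone was (2.09-fold), as were 1.13% of kept genes. Whether members that are listed in one line and not in another differ between the lines was not tested.

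**Figure D3:**
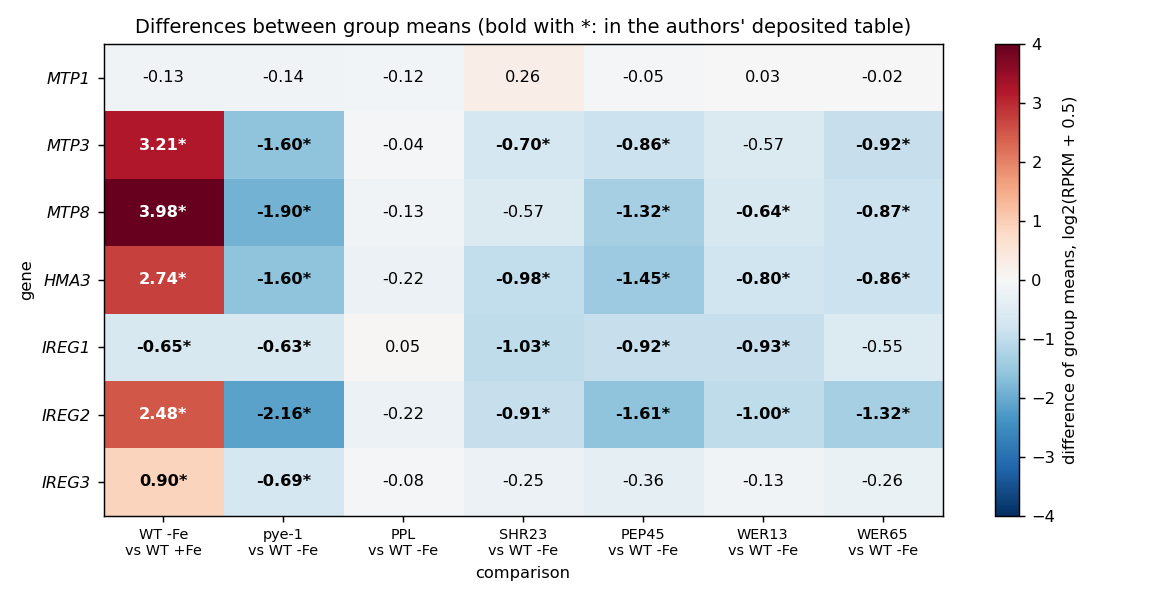
Difference of group means on the log2(RPKM + 0.5) scale for the 7 genes (rows) in the 7 comparisons that have an authors' table (columns), with bold values and an asterisk where that table lists the gene. Red is higher and blue lower in the group named first; the first column is red for 5 genes, up to 3.98 for MTP8, and the pye-1 column blue for the same 5 and IREG1, down to -2.16 for IREG2.

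How far each line lay between pye-1 and wild type can be put on 1 scale, on which 0% is the pye-1 mean and 100% the iron-deficient wild-type mean, in log2(RPKM + 0.5). It is a description that uses the same pye-1 and wild-type means for every line. It was taken for the 6 members and, beside them, for all 2008 kept genes that the authors list as lower in pye-1. The samples behind that listing also set 0% and 100%. Positions above 0% are thus in part built in, for the members and the 2008 genes alike. In PPL the members lay at 86.0% (HMA3) to 109% (IREG1), and the median of the 2008 genes at 84.7%, with a 75th percentile of 96.1% that MTP3 (97.2%) and IREG1 passed. In SHR23 MTP8 lay at 70.0%, IREG3 at 63.9%, IREG2 at 57.6%, MTP3 at 56.2% and HMA3 at 38.5%, against a median of 27.8% and a 75th percentile of 58.5%, which MTP8 and IREG3 passed and the other 3 did not.

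In PEP45 IREG3 lay at 48.5%, MTP3 at 46.6%, MTP8 at 30.6%, IREG2 at 25.4% and HMA3 at 9.13%, against a median of 15.4% and a 75th percentile of 32.0%, which IREG3 and MTP3 passed and the other 3 did not. HMA3 was thus nearly at its pye-1 level there. In WER13 IREG3 lay at 80.9%, MTP8 at 66.1%, MTP3 at 64.4%, IREG2 at 53.4% and HMA3 at 50.2%, all above the 75th percentile of the 2008 genes (34.1%), whose median was 6.83%. In WER65 the same 5 lay between 38.9% (IREG2) and 62.2% (IREG3), against a median of 15.3% and a 75th percentile of 42.3%, which MTP3 and IREG2 did not reach. IREG1 was apart from the other 5 members. It lay beyond its pye-1 level in SHR23 (-63.5%), PEP45 (-46.5%) and WER13 (-47.5%) and at 13.2% in WER65. The 25th percentile of the 2008 genes also lay beyond pye-1 in these lines, at -2.70%, -1.97%, -26.3% and -15.5% in that order. Of the 2008 genes, 4%, 2%, 15% and 48% lay below IREG1 there. Single libraries weigh on these IREG1 values: without the PEP45 library of 6 reads its position there was -5.81%, and without the SHR23 library of 9 reads -34.5%. In WER65 it ran from -18.3% without the library of 41 reads to 41.6% without that of 19, and in WER13, leaving out each library of the line, pye-1 or iron-deficient wild type in turn, from -60.7% to -33.0%.

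The importer and reductase of the uptake pathway sat in the same upper range in WER13, IRT1 at 88.6% and FRO2 at 75.8%, and the transcription factor gene FIT at 41.6%. The positions in SHR23 were near these for IRT1 (90.1%) and FRO2 (71.3%), with FIT at 28.4%. In WER65 IRT1 lay at 53.4%, FRO2 at 53.2% and FIT at 36.5%. In PEP45 IRT1 lay at 49.8%, FRO2 at 34.3% and FIT at 14.4%. FIT was listed as lower than iron-deficient wild type in pye-1 and in SHR23, PEP45, WER13 and WER65 by the authors' deposited tables, with levels of 239.8 RPKM in iron-deficient wild type, 62.5 in pye-1, 211.8 in PPL, 91.7 in SHR23, 76.0 in PEP45, 109 in WER13 and 102 in WER65. From high to low, FIT among the groups without iron ran wild type, PPL, WER13, WER65, SHR23, PEP45 and pye-1. Of the members, HMA3 alone ran in the same order. For MTP3, MTP8, IREG2 and IREG3, SHR23 stood above WER65.

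**Figure D4:**
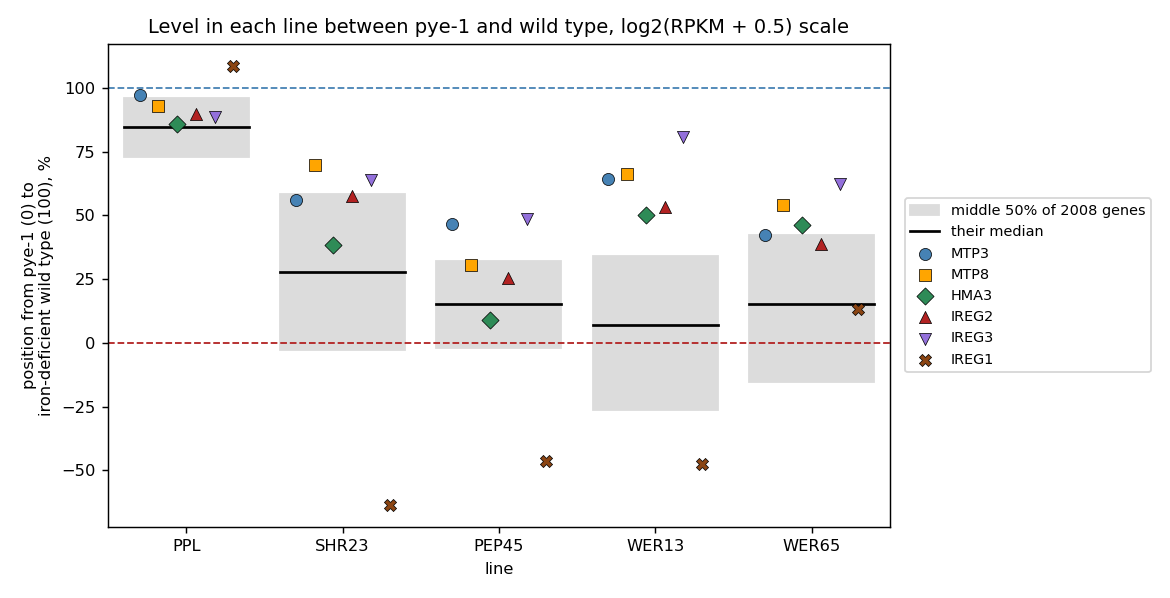
Position of each line between the pye-1 mean (0) and the iron-deficient wild-type mean (100) in percent on the log2(RPKM + 0.5) scale, for 6 genes (symbols), with the middle 50% (grey box) and median (black line) of all 2008 genes the authors list as lower in pye-1. In WER13 the symbols of MTP3, MTP8, HMA3, IREG2 and IREG3 lie between 50.2 and 80.9, above the grey box, and IREG1 lies at -47.5.

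Other genes of metal handling did not share one pattern with the members. For the counts that follow, the authors' deposited tables list 18.1% to 23.1% of all kept genes in either direction, and 0.0152% for PPL. Of 9 further MTP family genes, 7 reached 1 RPKM in a group, and only AT1G16310, annotated as a cation efflux protein, was listed: it fell from 20.7 to 10.1 RPKM without iron (q = 0.00235) and was higher in pye-1 (15.4, q = 0.0342) and WER65 (15.3, q = 0.012) in the authors' deposited tables. The direction was in each case the reverse of MTP3 and MTP8. The median difference of those 7 was -0.13 without iron and 0.19 in pye-1.

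Of the 7 other metal ATPases of the HMA family, 2 rose and 1 fell without iron in the authors' deposited table. HMA1, an ATPase of the plastid envelope, rose from 17.9 to 32.0 RPKM (q = 0.000368) and fell in pye-1 to 19.0 (q = 4.31e-05) and in PEP45 to 20.1 (q = 5.29e-05) in the authors' deposited tables. HMA8, which supplies copper to thylakoids, fell from 8.08 to 5.27 without iron (q = 0.00825). It was lower again in pye-1 (3.34, q = 0.00334), SHR23 (3.11, q = 0.000411), PEP45 (3.21, q = 0.00183), WER13 (2.35, q = 4.45e-05) and WER65 (3.11, q = 0.00161) in the authors' deposited tables.

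Other genes of vacuolar metal handling, 13 in the list and 12 of them kept, had 6 rises and no fall without iron in the authors' deposited table. NRAMP4, which releases iron from the vacuole and so works against the loaders, rose from 31.2 to 184 RPKM (q = 1.65e-06) there. Unlike MTP3, MTP8, HMA3 and IREG2 it rose further in pye-1, to 292 (q = 0.000265), and in SHR23 (516.5), PEP45 (340.2), WER13 (404) and WER65 (342) in the authors' deposited tables. NRAMP3, of the same role, was likewise listed as higher in pye-1 (23.1 against 11.9, q = 0.00143). CAX4, a vacuolar cation and proton exchanger, had the direction of the members: it rose from 13.4 to 55.2 without iron (q = 2.15e-05) and was listed as lower in pye-1, at 30.9 (q = 6.92e-05), in the authors' deposited tables. In all, 3 of the 13 were listed as higher and 2 as lower in pye-1, 4 as higher in SHR23, 3 as higher in each of PEP45, WER13 and WER65, none as lower in these 4 lines, and none in PPL.

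Among 10 uptake genes and their regulators, all rose without iron in the authors' deposited table; 5 fell in pye-1, 1 in PPL, 3 in SHR23, 5 in PEP45, 2 in WER13 and 5 in WER65, and 5 were higher in SHR23 and 1 in each of PEP45, WER13 and WER65. PYE, the gene mutated in pye-1, is 1 of the 10. PYE is the 1 gene listed as lower in PPL, and it is among those listed as lower in pye-1, PEP45 and WER65. FRO2, the root ferric reductase, fell from 1966 to 392 RPKM in pye-1 (q = 1.16e-06), and IRT1 from 3853 to 1194 (q = 1.48e-05), in the authors' deposited table. Among 13 genes of manganese and zinc entry and supply to inner membranes, 1 rose and 5 fell without iron. ZIP9, a zinc transporter gene, rose from 2.60 to 31.3 RPKM (q = 1.66e-06) and was lower in pye-1, at 2.88 (q = 2.02e-06), while ZIP3 fell from 48.9 to 5.15 (q = 2.07e-06) in the authors' deposited tables. In pye-1 1 of the 13 was higher and 5 lower, in PPL none was listed, in SHR23 1 higher and 3 lower, in PEP45 1 and 4, and in WER13 and WER65 1 and 5. Of all kept genes, 18.1% (SHR23 and PEP45) to 23.1% (WER13) were listed in either direction in pye-1 and these lines, PPL left out.

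Markers of cell types moved with some of the groups. For the counts that follow, the authors' deposited tables list as lower 11.7% of all kept genes without iron, 10.2% in pye-1 and 10.6% in SHR23. They list as lower 9.64% in PEP45, 14.1% in WER13 and 11.5% in WER65. In either direction they list 23.1% in WER13 and 0.0152% in PPL. The summed level of 7 root hair genes was 336 RPKM in iron-sufficient wild type, 117 in iron-deficient wild type, 19.9 in pye-1, 89.7 in PPL, 23.2 in SHR23, 25.1 in PEP45, 27.8 in WER13 and 77.1 in WER65; the authors' deposited tables list 5 of 7 as lower without iron, 7 of 7 as lower in pye-1, SHR23, PEP45 and WER13, 2 in WER65 and none in PPL. Among the groups without iron, wild type and PPL had the highest root hair sums and the highest MTP3, IREG2, MTP8 and HMA3. In pye-1 each of these was lowest. WER65 had a higher root hair sum than WER13 (77.1 against 27.8) and lower levels of these genes, with HMA3 at 19.6 against 20.5 RPKM. The 7 Casparian strip genes summed to 566 RPKM with iron, 205 without, 85.1 in pye-1, 178 in PPL and 107 to 130.3 in the other lines. The authors' deposited tables list 5 of the 7 as lower without iron, 5 in pye-1 and in PEP45, and 3 in each of SHR23, WER13 and WER65. The 6 xylem genes summed to 383 RPKM with iron, 175 without, 173 in pye-1 and 146.5 to 226 in the lines; 6 of 6 were lower without iron and 1 higher in WER13 in the authors' deposited tables. None of these markers was at 0 in any group.

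The 8 green tissue genes summed to 149 RPKM with iron, 153 without, 44.5 in pye-1, 55.3 in PPL, 27.2 in SHR23, 164 in PEP45, 11.4 in WER13 and 12.1 in WER65. In WER65 2 of them were at 0. The authors' deposited tables list 2 of the 8 as lower in WER13 and 3 in WER65, where 14.1% and 11.5% of kept genes were listed as lower. Of the lines, PEP45 had the highest green tissue sum and the lowest levels of MTP8, HMA3 and IREG2. Iron-deficient wild type, with a sum of 153, had the highest levels of these genes. In pye-1, with a sum of 44.5, they were lowest among the groups without iron. The part of the root hair, Casparian strip, xylem and green tissue transcripts in the levels of the members was not tested.

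The members can also be ordered by likeness of profile, as the root mean square difference between profiles over the 8 group means, each centred, in log2(RPKM + 0.5). HMA3 and IREG2 were closest to each other (0.25), followed by MTP3 and MTP8 (0.28) and MTP3 and HMA3 (0.29), and MTP8 and IREG1 were farthest apart (1.54). Among 14148 genes with a mean of at least 5 RPKM, the closest to MTP8 was AT5G38820, annotated as a transmembrane amino acid transporter (0.16), then WRKY62 (0.18) and AT3G48450 (0.20). The closest to MTP3 were AT2G43610, annotated as a chitinase (0.18), PP2-A8 (0.18) and AT1G53635 (0.18).

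HMA3 was closest to AT3G06890 (0.11), which has no annotated function, then AT3G07720 (0.18) and 4CL2 (0.18), a gene of phenylpropanoid synthesis. IREG2 was closest to SAM1 (0.16), an S-adenosylmethionine synthetase gene, then ROPGEF10 (0.17) and PP2-B6 (0.18), and IREG1 to AT3G24420 (0.10), AT5G07770 (0.10) and MYB86 (0.12). AT5G38820, for example, stood at 3.59 RPKM with iron, 81.3 without, 16.1 in pye-1, 73.0 in PPL, 50.7 in SHR23 and 25.3 in PEP45, near the shape of MTP8 at a higher level. These likenesses rest on 8 group means that share their libraries. MTP1 and IREG3 ranged over less than 1 on the log2 scale and were not searched.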

How the data were processed

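Libraries were poly(A)-selected and directional, per the labels' protocols. The submitters' processing notes name TAIR10, FastQC, TopHat2 and edgeR, without versions; the counting program, strand setting and read length: not given in the sources used here. The authors computed RPKM values and deposited them as 1 mean per group. The authors also deposited 7 tables of listed genes with a q-value, all under 0.05; their test is not stated. The table headed PYE was matched to PPL by its values, because MRD1 is lower than in iron-deficient wild type in the PPL column only.

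No test across genes was computed. Differences are on log2(RPKM + 0.5), folds are plain ratios of RPKM, and kept genes have at least 1 RPKM in at least 1 group. Genes with 1 exon and few reads have values that are multiples of what 1 read is worth, which gave 3 effective libraries in every group, with no replicate number. For IREG1, chosen for this after the data were seen, 1877 bases was the only 1 of 2300 gene lengths tried (1000 to 3299) that gave whole reads in all 8 groups within 2e-09 RPKM; any other length did so in at most 2. Reads per library are given for no other member. The scripts were tested on simulated data.

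The members and the 9 lists (80 genes) were chosen with earlier results of these data known. Named genes are the 7 members, up to 4 genes of each list per comparison with the smallest q-value, and the 3 genes of nearest profile to each member ranging over at least 1 on the log2 scale, among genes with a mean of at least 5 RPKM; AT5G03580, HMA2 (in groups where it is not listed) and the positions of IRT1, FRO2 and FIT were added after their values were seen. Names and coordinates come from TAIR10.1, by gene identifier; the deposited files hold no coordinates. Python 3.11.15, pandas 2.3.3, numpy 2.4.6, scipy 1.17.1, Biopython 1.88 and matplotlib 3.10.9 were used.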

Additional observations from a re-analysis of the deposited data

How the results depend on the processing

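The authors' lists were counted again at q under 0.01, at a minimum difference and at a mean of at least 5 RPKM. Requiring 2-fold on the log2(RPKM + 0.5) scale, which gives smaller values than the plain ratios for genes at low levels, left 1 member in SHR23 (IREG1), 3 in PEP45 (IREG2, HMA3 and MTP8), 1 in WER13 (IREG2) and 1 in WER65 (IREG2), against 4, 5, 4 and 4; the other counts moved by no more than 1.5 times. For the comparisons with pye-1, a pseudocount of 1 left 0 members past 2-fold in WER65, where 0.5 gave 1. The 84 differences of single members kept their sign where listed and moved by at most 0.38 on the log2 scale under a pseudocount of 0.1 or 1 and after centring on the median of all kept genes. Over all genes of the table, expressed or not, the authors' lists hold 10.9% to 14.0% of genes, with PPL left out. No paired analysis was possible because the deposited columns are group means that carry no replicate number. Leaving out a replicate was done for IREG1 alone. Chosen after seeing the data, leaving out each of its libraries in turn gave log2 differences from -0.73 to -0.54 without against with iron, and against iron-deficient wild type from -0.73 to -0.56 in pye-1, -0.05 to 0.13 in PPL, -1.17 to -0.84 in SHR23, -1.16 to -0.66 in PEP45, -1.03 to -0.83 in WER13 and -0.75 to -0.37 in WER65. IREG1 rests on 6 to 97 reads per library, which limits its precision; its position between pye-1 and wild type ran from -74.0% to -5.81% in PEP45 and -81.8% to -34.5% in SHR23 over the same kind of left-out libraries. For the other 6 members the spread between samples is not known here.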
